A study of Mus musculus with 59 samples.

Results

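Spinal cord of SOD1_G93A mutant mice (MT) was compared with wild-type spinal cord (WT) at 4 and 8 weeks of age, the 2 earliest ages of the series. The libraries were chosen by their labels: 4 MT libraries (a female and a male at each age) and 4 WT libraries with the same make-up, 8 of the 59 libraries of the series. The labels give genotype, age, sex and tissue, and whether a library is 1 animal or a pool is not stated in them. The remaining libraries are 8 spinal cords of 12 and 17 weeks and 43 glial or neuronal libraries from co-cultures, and they are used below only where a value of the young cord is set beside them.

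SOD1 encodes a copper and zinc superoxide dismutase, and the G93A form of the human gene causes a dominant form of amyotrophic lateral sclerosis. Mice that carry it lose spinal motor neurons and develop paralysis, after a phase in which they look healthy. During the disease microglia and astrocytes of the cord take on reactive states, marked by genes such as Cst7, Itgax, Clec7a, Gfap and Serpina3n. The comparison asks which transcripts differ before that, and which differ at both early ages.

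Total RNA was sequenced. The values are on the RPKM scale (reads scaled by gene length and library), and differences are log2(value + 1) of MT minus WT with week and sex in the model. A gene counts as called at an adjusted p under 0.05 (limma, Benjamini-Hochberg over 14149 genes), and a lost call does not show that a gene did not differ. The 8 libraries held 22.8 to 49.1 M reads on genes (median 31.2 M) and 13445 to 13697 genes at a value of 1 or more. Mouse Sod1 ranged from 79.6 to 120 in MT and from 74.1 to 195 in WT libraries and so did not separate the genotypes, and the highest value was in the WT 4-week male. The 2 WT 4-week libraries stood further apart than the other pairs, with a correlation of log2 values across genes of 0.9745, where the other 3 same-group pairs reached 0.987 to 0.989. Ddx3y, a Y-linked gene, was at 14.5 to 18.4 in males and at 0.0545 to 0.180 in females. Fewer cells of a type and less RNA per cell cannot be told apart in such bulk tissue.

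The early mutant effect over both ages gave 1 called gene, 0.00707% of those tested, and that gene was lower in MT. The unadjusted p was under 0.05 for 1266 genes (8.95%), and voom on the recovered reads called 0 with 1546 at that p. The gene is Aoc3, a copper amine oxidase of vascular smooth muscle and endothelium that is also known as vascular adhesion protein. It lies on the plus strand at chr11:101191919-101203253 (mm9).

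Aoc3 had values of 0.0117 and 0.0669 in the MT 4-week female and male, against 3.34 and 2.84 in the WT 4-week female and male. At 8 weeks it had 0.00342 and 0.0408 in MT, against 2.91 and 2.96 in WT. The MT libraries held 1 to 11 reads on Aoc3 and the WT libraries 386 to 666, with no overlap at either age. The mean was 0.0307 ± 0.029 in MT and 3.01 ± 0.224 in WT (SD, n = 4 each). The early difference on the log2 scale was -1.96 (SE 0.0806, limma adjusted p = 0.000802), and it was called in each of the 8 fits that left out 1 library. The change was -1.97 at 4 weeks (adjusted p = 0.0108) and -1.94 at 8 weeks (adjusted p = 0.0228), and the 2 ages did not differ detectably (0.03, SE 0.164, adjusted p = 0.947). The calls at a single age were less stable, since Aoc3 was called at 4 weeks in 2 and at 8 weeks in 2 of those 8 fits, both without a WT 4-week library. Its adjusted p over the 8 fits was 0.0104 to 0.169 at 4 weeks and 0.016 to 0.319 at 8 weeks. On the log2(value + 1) scale such a change is understated, because the MT values are near 0.

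No other tested gene within 200 kb of Aoc3 was called, and their log2 changes were -0.05 to 0.44. Gm11626, an antisense transcript, was the highest of these and Coa3, a mitochondrial assembly factor, the lowest. Aoc2, a second amine oxidase gene whose start lies 5.54 kb upstream, was below the filter, at a mean of 0.550 in MT and 0.682 in WT. Summed levels of the 10 pericyte and vascular smooth muscle markers were 22.0 to 34.3 in MT and 22.8 to 34.2 in WT libraries. Aoc3 is 1 of the 10, so the sums include its own means of 0.0307 in MT and 3.01 in WT. Of the 9 tested markers of that list, Aoc3 was lower and none higher at the adjusted threshold, with a median log2 change of 0.109 against -0.002 over all genes. The log2 change was above 0 in 8 of the 9, 2 of them at a limma unadjusted p under 0.05.

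In the libraries of 12 and 17 weeks Aoc3 was again at 0 to 0.0306 in the 4 MT cords. The WT libraries of these ages had 3.30, 2.19 and 2.76 in the 12-week male, the 17-week female and the 17-week male. The WT 12-week female stood at 0.0221, the MT level. Its Cst7 and Itgax values, 0.0777 and 0.0695, were at the WT level, where the MT cords of 12 and 17 weeks had 9.10 to 37.9 and 1.27 to 7.67. In that library Aoc3 thus lay with MT and these disease genes with WT. Over 12 and 17 weeks the log2 change was -1.41 (SE 0.236, adjusted p = 0.000177), and 911 of 14295 genes were called there (6.37%), 749 of them higher (5.24%). The late call of Aoc3 was lost after median-of-ratios rescaling (adjusted p = 0.0518) and without the MT 17-week female (adjusted p = 0.0632).

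Cultured cells, which the young cord comparison did not use, differed in the same direction. Glia labelled MT had Aoc3 at 0.0508 to 2.20 RPKM (median 0.115, n = 12), against 2.41 to 3.88 RPKM in WT glia (median 2.78, n = 11). Neurons labelled MT had 0.0439 to 1.10 RPKM (median 0.160, n = 9), against 1.67 to 3.63 RPKM in WT neurons (median 2.31, n = 11). Neither pair of ranges overlapped, with exact two-sided permutation p-values of 9.61e-06 in glia and 5.95e-06 in neurons. These tests were chosen after the values were seen and treat libraries as independent, although cultures share partners and days. On day 3 the MT glia had 2.08 and 2.20 RPKM in replicate 1 but 0.538 and 0.548 RPKM in replicate 2. Libraries of 1 replicate number may thus share a preparation, which was not tested, and the p-values may be too small. Within a culture day the groups did not overlap either, with exact permutation p-values of 0.0857 on day 3 and 0.0286 on days 7 and 14 in glia, and 0.1 on day 3 and 0.0286 on days 7 and 14 in neurons. For 3 against 3 neuronal libraries on day 3 the smallest p possible is 0.1, and on days 7 and 14 it is 0.0286 in both cell types. The highest MT values were on culture day 3, at 0.538 to 2.20 RPKM in glia, against 0.0508 to 0.197 RPKM on days 7 and 14.

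**Figure D1:**
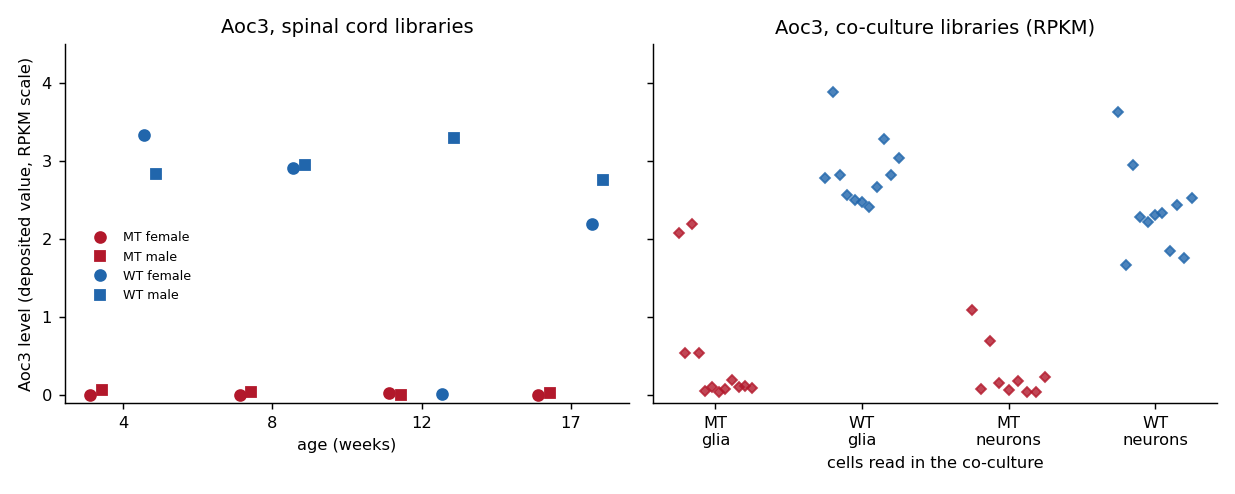
Aoc3 level in each spinal cord library by age (left; red MT, blue WT, circles female, squares male) and in each co-culture library by genotype and cell read (right), each point 1 library. MT cords lie at 0.0669 or below at all 4 ages, and 1 WT library, the 12-week female at 0.0221, lies with them.

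With Aoc3 included, 545 genes had all 4 MT libraries on one side of all 4 WT libraries (3.85%, 292 above, which is 2.06%, and 253 below, which is 1.79%), and the others did not pass the adjusted threshold. Of these, the 19 of smallest p beside Aoc3 had absolute log2 changes of 0.25 to 0.75 at an adjusted p of 0.547. They are described as values that did not pass. Of the 18 with a value at 12 and 17 weeks, 11 had the same sign there, against 278 of the 541 genes without overlap that were measured there.

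A further 7 genes met the sizes asked of a shared change without the adjusted p: 0.5 or more with the same sign at 4 and at 8 weeks, and no overlap. With Aoc3 they make 8 genes (0.0565%), 2 higher (0.0141%) and 6 lower (0.0424%). The 7 were picked out after their values were seen. Tmem144, a membrane transport protein, had 7.00, 6.43, 5.99 and 8.17 in the MT 4-week female and male and 8-week female and male, against 3.31, 3.97, 4.66 and 4.56 in the same WT libraries. Its early log2 change was 0.62 (SE 0.0988), and it was -0.23 over 12 and 17 weeks, a difference between the periods of -0.85 (adjusted p = 0.0112). Such a difference between the periods was called for 452 of 14645 genes (3.09%). The early libraries by which genes were picked also enter that test, so its p-values for these genes are not independent of the choice.

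Fcrls, a microglial Fc receptor-like gene, had 1.58, 2.17, 2.68 and 0.619 in MT, against 4.57, 3.90, 6.07 and 4.65 in WT, in the same library order. The log2 change was -1.12 (SE 0.230, unadjusted p = 0.00186). At 12 weeks the female and male MT cords held 895 and 232 reads, against 231 and 97 in the WT cords. The MT male thus held about as many as the WT female. At 17 weeks the female and male MT cords had 19.9 and 26.4, against 0.641 and 0.250 in the WT cords, so the WT level was also lower than at the early ages. The difference between the periods was 3.72 (adjusted p = 7.66e-06), and the early sign was opposite to the late one.

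Gm13787, a processed pseudogene, had 0.161, 0.837, 1.13 and 1.31 in MT and 0, 0, 0.146 and 0.139 in WT, which are at most 12 reads. Sp7, a transcription factor of bone-forming cells, had 0.588 to 1.68 in MT and 1.90 to 3.33 in WT. Gm25837, an annotated microRNA locus, had 8.07 to 10.8 in MT and 15.1 to 19.7 in WT. Gm14480 and Snora61, a pseudogene and a small nucleolar RNA, had 8 to 26 and 0 to 1 reads in MT libraries and 20 to 34 and 2 to 11 reads in WT libraries. Gm13787, Gm14480 and Snora61 thus rest on few reads in every early library.

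**Figure D2:**
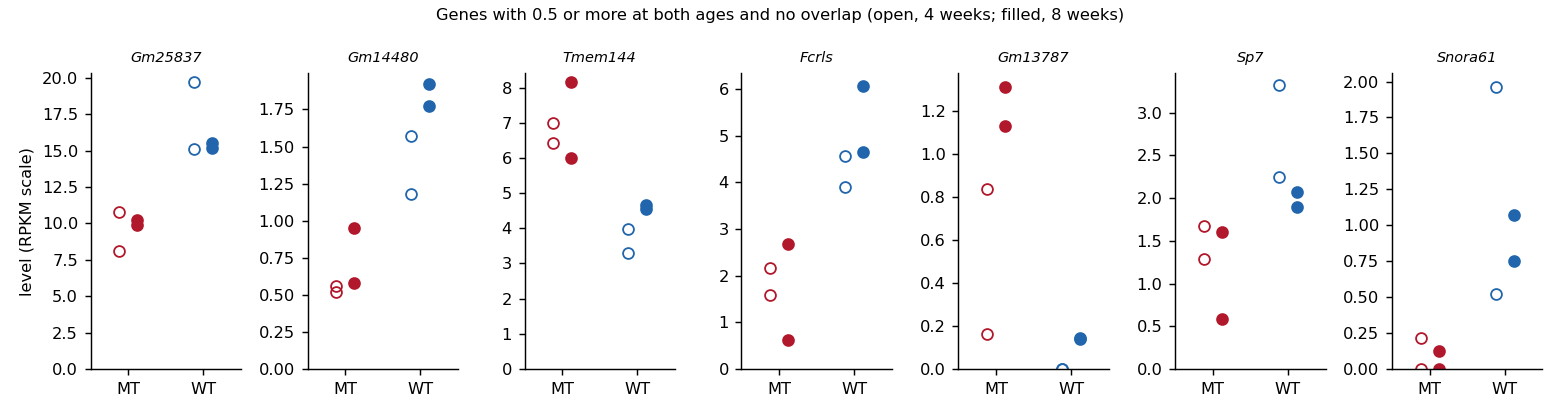
Level (RPKM scale) of the 7 genes other than Aoc3 with a log2 change of 0.5 or more of 1 sign at both ages and no overlap, in the 4 MT libraries (red) and the 4 WT libraries (blue), open at 4 weeks and filled at 8 weeks. In each panel the 4 MT points lie wholly above or below the 4 WT points, and none of these genes passed the adjusted threshold.

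Rras, a small GTPase of the Ras family, was also higher in MT at both early ages, with 4.75, 5.25, 5.49 and 4.67 in MT against 3.76, 2.92, 3.44 and 3.33 in WT. Its log2 change was 0.47 early (SE 0.0770, adjusted p = 0.547) and 0.72 at 12 and 17 weeks (adjusted p = 0.00180). Rras was thus the only one of those 19 genes that was called with the same sign at the later ages. The others higher were Tmem86a, Zc3h6, Gon4l, Cntn3, Cnppd1, Wsb1 and Lrrc45 with log2 changes of 0.25 to 0.45, and the others lower were Them4, Rbm8a, Scnm1, Alg14, A230065N10Rik, Pak1ip1 and Tpmt with changes of -0.51 to -0.29.

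Several of these genes sit on chromosome 3. Of the 20 named genes without overlap (the 10 higher and 10 lower of smallest p), 6 were there, as were 6 of the 17 genes with an unadjusted p under 0.001 (0.12% of all genes). Genes without overlap, whatever their p, were 36 of the 675 tested on chromosome 3 (5.33%), against 3.85% of all genes. Chromosomes 15 and 16 had 5.11% and 5%, so by that count chromosome 3 stood out little. The share at an unadjusted p under 0.01 was 4.74% of the 675 chromosome 3 genes and 1.67% of all genes. Their 32 members were 13 higher and 19 lower in MT, 16 of them between 80 and 100 Mb (mm9), where 222 of the 675 lie. Them4, Rbm8a, Scnm1, Gon4l and Fcrls lie in that stretch, and Tmem144 (chr3:79617070-79646585) and Alg14 lie outside it. At 12 and 17 weeks 18 of the 32 had the same sign and 4 were called, against 370 and 48 of the 664 chromosome 3 genes measured there, and 102 and 19 of the 201 genes of other chromosomes at that p. This was noticed after the values were seen and is given as a description, without a test.

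The 2 early ages otherwise shared little. At 4 weeks 7 genes were called (0.0495%), 3 higher (0.0212%) and 4 lower (0.0283%), with 7.82% at an unadjusted p under 0.05. At 8 weeks 14 were called (0.0989%), 8 higher (0.0565%) and 6 lower (0.0424%), with 23% at that p. Aoc3 was the only one called at both ages. Absolute log2 changes of 0.5 or more were found in 457 genes at 4 weeks (3.23%) and in 754 at 8 weeks (5.33%). Both ages passed that size with the same sign in 30 genes (0.212%), which is 6.57% of the 4-week list and 3.98% of the 8-week list. Of these, 10 were higher (0.0707%) and 20 lower (0.141%). A further 169 of the 14149 tested genes passed it with opposite signs. Of these, 114 were lower in MT at 4 weeks and higher at 8 weeks, and 55 the other way. Over all tested genes, whatever the size, 2972 were lower and then higher, and 4536 the other way. Across all genes the 2 ages' changes had a Spearman correlation of -0.098 and the same sign in 46.9% of genes, a description over genes, which are not independent. That correlation was -0.0173 without the MT 4-week male and -0.153 without the MT 4-week female.

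**Figure D3:**
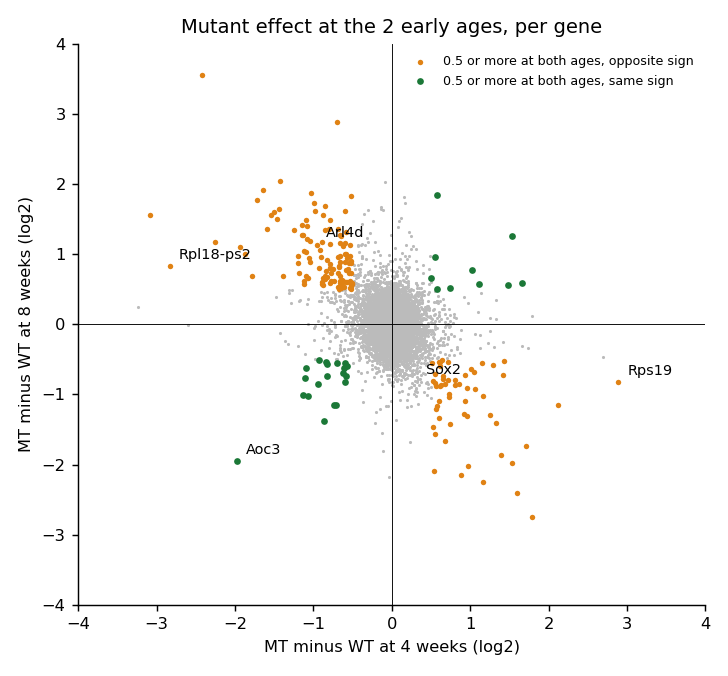
Log2 change of MT against WT at 4 weeks (x axis) and at 8 weeks (y axis) for each of the 14149 tested genes, 1 of which lies outside the plotted range of 4 either way. Orange marks the 169 genes at 0.5 or more with opposite signs, green the 30 with the same sign, and Aoc3 lies alone far out in the lower left.

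A test of the difference between the ages called 18 genes (0.127%), 13 with a larger MT minus WT value at 8 weeks (0.0919%) and 5 with a smaller one (0.0353%). All 18 had opposite signs at the ages, and 9 were protein coding, where 85.6% of all tested genes are. Rps19, a protein of the small ribosomal subunit, had 9.28 and 9.70 in MT and 0.326 and 0.507 in WT at 4 weeks, but 3.62 and 3.43 in MT and 7.87 and 6.21 in WT at 8 weeks (difference -3.71, adjusted p = 0.00872). Rpl18-ps2, a ribosomal pseudogene, ran the other way, with 2.37 and 3.42 in MT and 25.2 and 27.9 in WT at 4 weeks, and 16.6 and 19.9 in MT and 10.9 and 8.80 in WT at 8 weeks (difference 3.67, adjusted p = 0.0190). Both share near-identical copies elsewhere in the genome, so how reads were divided among the copies is uncertain. At 12 weeks the MT female and male held 54 and 771 reads on Rps19, against 584 and 1377 in the WT female and male. A low level thus also occurred in 1 MT library.

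A further 3 genes complete the 5 of smallest adjusted p. The stem cell factor Sox2 had 13.2 and 13.2 in MT and 10.6 and 9.98 in WT at 4 weeks, and 9.58 and 9.10 in MT and 17.7 and 16.5 in WT at 8 weeks (difference -1.14, adjusted p = 0.0420). Arl4d, a small GTPase, had 1.43 and 2.12 in MT and 4.31 and 4.40 in WT at 4 weeks, and 6.41 and 8.54 in MT and 2.29 and 3.44 in WT at 8 weeks (difference 2.10, adjusted p = 0.0420). Gm15996, an antisense transcript whose reads cannot be told from its sense gene without strand, differed by 1.39 (adjusted p = 0.0420). In the 4 cases named with values the genotype order at 4 weeks was the reverse of that at 8 weeks, with no overlap within either age. These genes were picked by their difference between the ages in the same libraries. That choice favours a reversed order and separated values, so the order only describes the pick.

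Other genes called at 8 weeks were picked out after their values were seen. Arrdc2, an arrestin-domain protein, had 10.4 and 11.4 in MT against 2.95 and 2.73 in WT (log2 1.63, adjusted p = 0.0280). Nfkbia, the inhibitor of NF-kappaB, had 16.8 and 22.6 in MT against 8.24 and 8.55 in WT (log2 1.13, adjusted p = 0.0433), while at 4 weeks it had 12.8 and 13.2 in MT against 16.9 and 19.0 in WT. Ccn1, a matricellular growth regulator, had 3.47 and 4.80 in MT against 1.12 and 1.09 in WT (log2 1.27, adjusted p = 0.0446). Ccn1 was also higher at 12 and 17 weeks (log2 2.22, adjusted p = 1.49e-07). Over those ages the log2 change was 0.32 for Arrdc2 (adjusted p = 0.497) and 0.58 for Nfkbia (adjusted p = 0.0671), which did not pass the threshold. Leaving out 1 library at a time moved the count of calls between 0 and 121 at 4 weeks (121 without the WT 4-week female) and between 0 and 199 at 8 weeks (199 without the WT 4-week male). Without the MT 4-week female, the MT 8-week female or the MT 8-week male, no gene was called at either age. The count of genes called between the ages moved between 0 (without any of the same 3 libraries) and 294 (without the WT 4-week female).

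Genes that passed 0.5 at both ages were shorter at the median than all tested genes, whether or not the sign changed. The 169 of opposite sign had a median deposited length of 519 bases and the 30 of the same sign 397 bases, against 3356 bases over all tested genes. Pseudogenes made up 60 of the 169 and 7 of the 30, against 741 of the 14149 tested. Among protein-coding genes the median length was 1126 bases for the 64 of opposite sign and 2215 for the 10 of the same sign. All tested protein-coding genes had a median of 3779 bases. Among 48 protein-coding genes under 500 bases the median log2 change was -0.22 at 4 weeks and 0.15 at 8 weeks, and 29.2% of them changed sign by this measure. In genes of 4000 bases or more the medians were 0.05 and -0.04, and 0.0536% did. Illumina or Nextera preparation is named for the series without saying which library had which. The part that length or preparation has in the opposite signs was not tested.

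**Figure D4:**
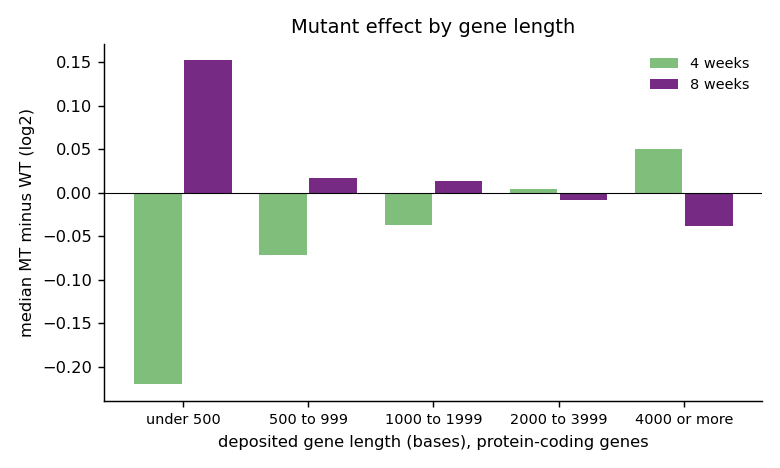
Median log2 change of MT minus WT at 4 weeks (green) and at 8 weeks (purple) for protein-coding genes by deposited gene length, bars from 0. The medians are -0.22 and 0.15 in the shortest class and 0.05 and -0.04 in the longest.

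Gene lists for the cell types and pathways of this disease moved little at these ages. The 38 lists held 410 distinct tested genes, and Aoc3 was the only one called. At an unadjusted p under 0.05 there were 44 (10.7%, against 8.95% of all genes), and 16 had no overlap (3.90%, against 3.85%). Over both early ages the median change lay within 0.1 of 0 in 32 of the 37 lists with a tested gene. The others were the red blood cell (0.63), reactive astrocyte (0.25), endothelial (0.15), pericyte and vascular smooth muscle (0.11) and dorsal root and Schwann cell (-0.15) lists. Such pooled medians can hide changes of opposite sign. At 4 and 8 weeks the medians were -0.22 and 0.24 for meningeal and fibroblast markers, and 0.22 and -0.13 for neural progenitor genes. They were 0.08 and -0.18 for cholinergic genes, 0.03 and -0.14 for astrocyte markers, and -0.73 and 0.12 for dorsal root and Schwann cell markers. The lists were chosen with earlier results of these data known.

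The 14 tested disease-associated microglia genes had a median log2 change of 0.01 at 4 weeks, 0.09 at 8 weeks, 1.29 at 12 weeks and 1.92 at 17 weeks, with none called early and 14 called higher at 12 and 17 weeks. The 16 tested microglia markers had medians of 0.07, 0.07, 1.04 and 1.87, with none called early and 15 called late. Clec7a, a receptor of reactive microglia, was at 0.390 to 1.41 in MT and 0.0748 to 0.806 in WT at the early ages. Reactive astrocyte genes had medians of 0.08 at 4 weeks and 0.35 at 8 weeks, and 1.38 and 2.25 later, with none of 8 called early and 7 called late. Gfap, the astrocyte intermediate filament, was at 396 to 528 in MT and 396 to 511 in WT at 4 and 8 weeks, so that the ranges nearly coincided. Nes, an intermediate filament of progenitors and reactive glia, had 3.66 and 3.77 in MT against 1.40 and 1.38 in WT at 8 weeks (log2 0.98, adjusted p = 0.0683) and 1.69 and 2.44 against 1.74 and 1.47 at 4 weeks. Complement, interferon-induced and antigen presentation genes had medians of -0.08, -0.07 and -0.25 at 4 weeks, and of 0.26, 0.28 and 0.32 at 8 weeks. Over both early ages their medians were 0.04, 0.05 and -0.06, with none called early and 7, 9 and 5 called late.

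**Figure D5:**
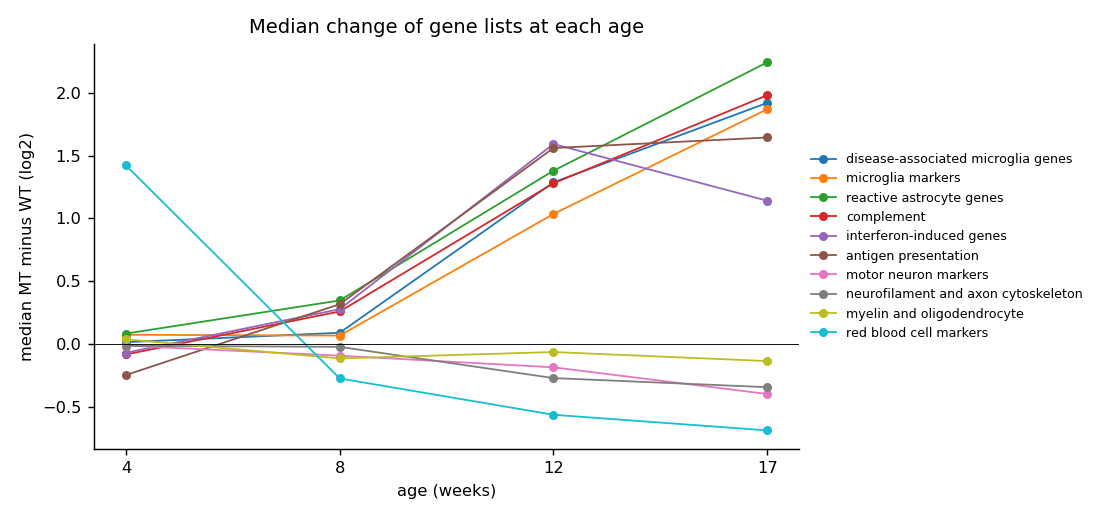
Median log2 change of MT minus WT over the tested genes of 10 lists at 4, 8, 12 and 17 weeks (lines join the medians of 1 list). The disease-associated microglia, microglia, reactive astrocyte, complement, interferon and antigen presentation lists lie between -0.25 and 0.35 at 4 and 8 weeks and between 1.04 and 2.25 at 12 and 17 weeks.

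Neuronal lists showed no called gene. Over both early ages motor neuron markers had a median of -0.03 (12 tested, 5 above 0). Neurofilament and axon cytoskeleton genes had 0.02 (13 tested, 7 above 0) and axonal transport motors 0.04 (13 tested, 7 above 0). The motor neuron gene Chodl had 8.49, 11.3, 9.24 and 9.55 in MT and 9.83, 10.9, 12.6 and 14.5 in WT in the same library order (log2 -0.27, unadjusted p = 0.0318), and its log2 change was -1.25 at 12 and 17 weeks. Kif5b, a kinesin motor, had the lowest change of the axonal transport list and was its only member without overlap. It had 63.7 to 72.6 in MT and 74.0 to 103 in WT (log2 -0.35, unadjusted p = 0.00449, adjusted p = 0.547). The axon injury and stress list had an early median of 0.04 (13 tested entries, 9 above 0), and Sprr1a had its largest change. Sprr1a, a gene induced in injured neurons, had 1.20 and 1.96 in MT at 8 weeks against 0.122 and 0.319 in WT (log2 1.07, adjusted p = 0.0768). At 4 weeks it had 0.269 and 0.526 in MT against 0.202 and 0.0423 in WT. Its log2 change was 2.14 at 12 and 17 weeks and 0.69 over the 2 early ages, a difference between the periods of 1.45 (adjusted p = 0.00278).

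Respiratory chain, proteasome, chaperone, antioxidant and unfolded protein response genes had medians of -0.08, -0.02, -0.06, -0.03 and -0.06 over both early ages, with none called. At 8 weeks alone the chaperone and unfolded protein response medians were -0.22 and -0.12, against -0.003 and -0.004 at 4 weeks. Cox6a1, a subunit of cytochrome c oxidase, was the gene of smallest p among the respiratory chain members, at 258 to 280 in MT and 309 to 358 in WT (log2 -0.30, unadjusted p = 0.00426, adjusted p = 0.547). The 9 cholinergic and neuromuscular genes had a median of -0.04, with 4 above 0, and the 17 tested presynaptic genes a median of 0.06, with 11 above 0. Chrna4, a nicotinic receptor subunit of the cholinergic list, was at 11.2 to 13.2 in MT and 8.80 to 10.8 in WT, while Nrg1, a neuregulin ligand of the same list, had a log2 change of -0.26 (unadjusted p = 0.0306). In the presynaptic list Gad1, the enzyme of GABA synthesis, had a log2 change of 0.29 and Sv2b, a synaptic vesicle glycoprotein, one of -0.31. Chrna4, Gad1 and Sv2b had no overlap, and all 4 genes had an adjusted p of 0.547.

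Red blood cell markers differed between libraries. The red blood cell list had medians of 1.42 at 4 weeks and -0.28 at 8 weeks, with a summed level of 340 to 3121 in MT and 562 to 677 in WT libraries. Hbb-bs, an adult beta globin, reached 1280 in the MT 4-week male and lay between 146 and 411 in the other 7. No gene of the list was called early, and its part in other differences was not tested.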

How the data were processed

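Per the labels, RNA was isolated by Trizol and column purification, and libraries were made with Illumina or Nextera protocols and sequenced on the Illumina platform. Bowtie and mm9 are named in the submitters' processing notes, and the counting step is not stated there. The authors' spinal cord score is RPKM-scale: 100% of values came out as whole reads (within 0.01 read), and 898 of 36814 entries are below 0 in some library, so that a whole number of reads was subtracted. What was subtracted is not stated. Negative values were set to 0. The deposited culture values are RPKM.

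Differences were tested with limma 3.58.1 in R 4.3.3 on log2(value + 1), with trend, over genes with a value of 1 or more in 2 or more of the libraries, with week and sex as terms. The ages were tested in a model of the 4 genotype-by-age means with sex. Calls were Benjamini-Hochberg adjusted p under 0.05. The labels name no separate animals, so p-values reflect the spread between libraries only, which may be technical. A shared gene was called early, had 0.5 or more with the same sign at each age, and had no overlap. Named genes were the shared ones, the 10 higher and 10 lower of smallest p without overlap (fewer than 10 were called), up to 4 per list, the 5 of smallest adjusted p between ages, and Sod1. Members, lists and tests were chosen with earlier results of these data known. Alternatives were rescaling, quantile normalization, pseudocount 0.1, other filters, no sex term, a replicate block, all 16 cords, no trend, and each library left out. Voom on the recovered reads was added after the data were seen. Sequences are not printed, since no result turns on one.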

Additional observations from a re-analysis of the deposited data

Results flagged for a closer look

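In the 58 groups of 4 libraries tested for a single library far from the rest, 4 were flagged, and chance flags about 1 in 20. Cnppd1, a cyclin-related protein, was lowest at 4.20 in the MT 4-week female, against 4.58 to 4.62 in the other MT libraries. In WT it was highest at 3.99 in the 8-week male, with the other WT libraries at 3.46 to 3.52. Gm25837 was highest at 19.7 in the WT 4-week female, against 15.1 to 15.5 in the other WT libraries. Gm14480 was highest at 0.950 in the MT 8-week female, against 0.519 to 0.580 in the other MT libraries.

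The mutant effect differed between 8 and 4 weeks by test for the 5 genes of smallest adjusted p: by -3.71 on the log2 scale for Rps19, 3.67 for Rpl18-ps2, 1.39 for Gm15996, 2.10 for Arl4d and -1.14 for Sox2 (limma, adjusted p 0.00872 to 0.0420).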

How the results depend on the processing

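Aoc3 was called in 17 of the 18 alternatives of the early fit, with an adjusted p of 0.00584 to 0.0227 over the 8 fits that left out 1 library. The exception was voom on recovered reads (log2 -6.86, adjusted p = 0.0566), which called 0 genes early, 0 as shared and 0 in both periods, 900 at 8 weeks, 103 between the ages and 1106 between the periods. Aoc3 was not called at 12 and 17 weeks (0 genes in both periods) after median-of-ratios rescaling, quantile normalization, no filter, or a filter of 1 or more in at least 4 libraries, where it was not tested late. Between the periods, rescaling gave 1054 calls and quantile normalization 1023, against 452. Rescaling gave 8 calls at 8 weeks, against 14. With no filter, 0 genes were called at 4 weeks, at 8 weeks or between the ages. Without the sex term there were 99 at 8 weeks and 32 between the ages, with all 16 cords 13, 35 and 56 at 4 weeks, at 8 weeks and between the ages, and without the trend 4 at 4 weeks and 3 between the ages. Leaving out 1 library gave 0 to 121 calls at 4 weeks, 0 to 199 at 8 weeks, 0 to 294 between the ages, 314 to 574 between the periods, 1 early, 1 shared, and 0 to 1 in both periods. The cause of these shifts was not tested. The counts of genes at 0.5 or more at both ages were 113 to 315 with opposite signs and 23 to 127 with the same sign over the alternatives.

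The replicate block of age and sex called 1 gene, Aoc3, with an adjusted p of 0.00854. Female deviations correlated between groups at 0.0222 to 0.142, over 0.1 in 3 of 6 pairs of groups, so sex was not taken to pair the libraries. Values at a single age rest on 2 libraries a group, and genes of few reads limit what can be seen at this depth.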
